A study of Mus musculus with 56 samples.

Results

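Spp1, Gpnmb, Igf1, Lpl, Itgax, Clec7a, Fabp5, Fam20c, Ccrl2 and Sdc4 are genes that microglia, macrophages that live in the brain, express in a phagocytic state of early postnatal life. These 10 genes were taken by symbol from the deposited data, in which the count table lists 23420 genes, the FPKM files list 23356 symbols and the single-cell matrix 27998 genes. All 10 have a row in both bulk data sets, 9 have one in the single-cell matrix, and Clec7a was not analysed in single cells. They were chosen by name, with earlier results of the same data known.

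The series holds 56 samples, all mouse. Single-cell libraries (8, a droplet assay that counts unique molecular identifiers, UMIs, at the 3' end of transcripts) came from the cortex of B6 mice, with 2 libraries each from wild-type mice at postnatal day 28 (P28) and at day 9 (P9), and 2 each from P9 mice labelled ST2 KO and ST2 Het. ST2 is the receptor of the cytokine IL-33. Cultures of wild-type B6 microglia, made from pups of postnatal day 5 to 8 and kept with the growth factor M-CSF, were sequenced in bulk after 7 to 9 days in vitro, 7 with IL-33 at 200 ng/ml for 3 h and 7 in medium alone. The culture protocol also mentions the inhibitor GSK-J4, without saying which cultures received it. Sorted microglia from the cortex of B6/129 mice carrying Mapttm1(EGFP)Klt, an allele that makes Tau-GFP in neurons, gave 8 Tau-GFP plus and 8 Tau-GFP negative libraries. Their age is day 10 in the labels but day 9 in the text on the design. Cortical microglia of P9 B6/C57 mice sorted by TMRM, a stain for mitochondrial membrane potential, gave 10 TMRM high and 8 TMRM low Smart-seq2 libraries. The labels do not say whether replicates came from separate animals, so p-values measure the spread between these samples.

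Young microglia that clear dying cells, myelin and axons, and microglia around lesions in the adult, are known for a shared set of transcripts for secreted signals, lipid handling and lysosomes. Spp1 encodes osteopontin, a secreted glycoprotein that binds integrins and CD44, and Fam20c encodes the Golgi kinase that phosphorylates osteopontin and other secreted proteins. Igf1 encodes insulin-like growth factor 1, a trophic factor for oligodendrocytes and neurons. Lpl encodes lipoprotein lipase, which frees fatty acids from lipoproteins, and Fabp5 a carrier of fatty acids inside the cell. Gpnmb encodes a transmembrane glycoprotein of lysosome-rich macrophages. The surface proteins are CD11c (Itgax), an integrin chain, dectin-1 (Clec7a), a receptor for beta-glucans, CCRL2 (Ccrl2), a receptor that binds the chemoattractant chemerin, and syndecan-4 (Sdc4), a heparan sulphate proteoglycan.

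The 10 genes lie at separate loci (GRCm38, GENCODE M21). Those with a printed promoter are Sdc4 at chr2:164424247-164443887 on the minus strand, Spp1 at chr5:104435118-104441050 on the plus strand, Gpnmb at chr6:49036546-49070929 on the plus strand, Ccrl2 at chr9:111054486-111057519 on the minus strand and Igf1 at chr10:87858265-87937042 on the plus strand. RefSeq promoters (GRCm38.p6, 250 bases before and 50 after a start that RefSeq lists) were held for 8 of the 10 genes, without Lpl and Fabp5, in 12 windows. The windows shown of Igf1 and Sdc4 lie inside the GENCODE bounds of those genes, so other starts lie upstream of them. Both strands were searched for 7 motifs. The NF-kB motif GGGNNTTCC is in 5.82% of all 32851 promoters and in those of Ccrl2 and Sdc4, the 2 genes that rose with IL-33. The AP-1 motif TGANTCA is in 7.81% of all promoters and in those of Gpnmb, Igf1 and Itgax. GAGGAAGT, a PU.1 motif, is in 3.20% of all promoters and in that of Spp1. The E-box CACGTG (7.15% of all promoters), the M-box core CATGTG (14.2%) and the CRE TGACGTCA (1.79%) are in none of the 8 promoters, and TATAAA (13.6%) is in those of Clec7a and Spp1. The percentages count single windows, while the members were counted per gene over their 12 windows, so the 2 are not alike. A match describes letters in this window and is no measured binding site. The promoters of the 2 genes that rose with IL-33, and of the 3 genes on which the single-cell results turn, are shown 5' to 3' on the gene's own strand, with the motif named above in capitals. They span chr2:164443139-164443438 (minus strand, Sdc4), chr9:111057469-111057768 (minus strand, Ccrl2), chr5:104434861-104435160 (plus strand, Spp1), chr6:49036268-49036567 (plus strand, Gpnmb) and chr10:87860861-87861160 (plus strand, Igf1).
Sdc4: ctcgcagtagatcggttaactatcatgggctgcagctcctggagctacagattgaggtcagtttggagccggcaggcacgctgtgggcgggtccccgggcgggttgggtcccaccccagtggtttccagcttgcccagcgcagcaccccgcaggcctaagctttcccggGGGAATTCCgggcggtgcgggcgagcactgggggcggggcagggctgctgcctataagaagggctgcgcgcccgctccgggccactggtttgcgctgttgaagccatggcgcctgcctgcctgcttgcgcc
Ccrl2: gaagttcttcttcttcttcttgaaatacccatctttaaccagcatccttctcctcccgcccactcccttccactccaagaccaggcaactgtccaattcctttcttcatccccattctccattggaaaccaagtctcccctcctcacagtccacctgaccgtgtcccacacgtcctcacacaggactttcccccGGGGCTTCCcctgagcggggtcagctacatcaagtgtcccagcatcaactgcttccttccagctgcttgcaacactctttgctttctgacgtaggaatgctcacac
Spp1: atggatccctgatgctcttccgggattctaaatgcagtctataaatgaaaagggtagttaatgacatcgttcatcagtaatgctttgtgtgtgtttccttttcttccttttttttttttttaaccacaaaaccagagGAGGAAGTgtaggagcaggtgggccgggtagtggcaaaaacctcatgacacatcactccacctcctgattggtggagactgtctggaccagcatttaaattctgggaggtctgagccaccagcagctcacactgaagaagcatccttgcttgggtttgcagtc
Gpnmb: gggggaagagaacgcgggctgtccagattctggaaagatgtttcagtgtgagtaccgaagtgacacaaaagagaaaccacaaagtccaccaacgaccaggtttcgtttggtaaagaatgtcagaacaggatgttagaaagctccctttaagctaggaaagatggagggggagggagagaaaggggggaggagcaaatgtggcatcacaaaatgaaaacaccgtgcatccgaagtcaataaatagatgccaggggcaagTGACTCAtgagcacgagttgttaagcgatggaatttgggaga
Igf1: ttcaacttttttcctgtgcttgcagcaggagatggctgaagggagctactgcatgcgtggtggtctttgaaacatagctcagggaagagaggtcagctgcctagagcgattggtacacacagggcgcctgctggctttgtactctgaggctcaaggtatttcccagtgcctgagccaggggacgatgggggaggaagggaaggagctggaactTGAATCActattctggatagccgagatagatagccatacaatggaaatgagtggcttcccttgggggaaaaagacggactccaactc

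Across the 5 comparisons, the members moved furthest with TMRM staining and with age (the plot of fold changes). All 10 were higher in TMRM high cells, 8 of 10 were higher in Tau-GFP plus cells, and 6 of 9 were lower and 2 higher at P28. With IL-33, 2 of 10 were higher and 3 lower, and of the 9 tested in ST2 KO cells none was called. The calls are at an adjusted p under 0.05 over all genes tested in a comparison, by edgeR's quasi-likelihood test, or by limma for TMRM.

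**Figure D1:**
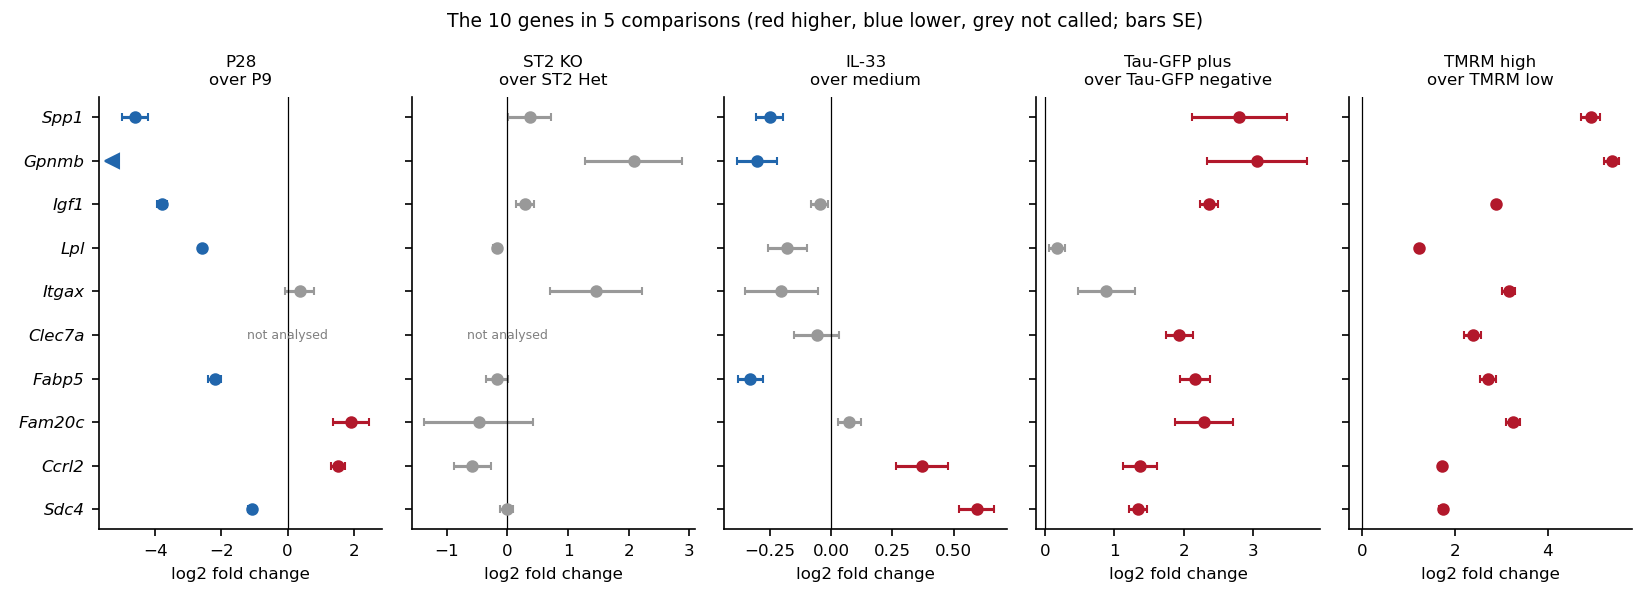
Log2 fold change (x axis) of each gene (rows) in the 5 comparisons (panels, each with its own scale), with bars of 1 standard error. All 10 genes sit to the right of 0 in TMRM high against low cells, from 1.24 for Lpl to 5.38 for Gpnmb. Gpnmb at P28 is drawn at -5.30, set by a floor of 3 UMIs.

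The first comparison was of age, in single cells summed per library over microglia-like cells. After filters, 15335 of 15507 barcodes remained, and 14 of 18 clusters, with 14409 cells, were called microglia-like, since they carried microglial markers and too few of any other list. P28 libraries held 2835 and 2899 such cells with a median of 2296 and 2232 UMIs, and P9 libraries 2558 and 2215 cells with 3830 and 4071 UMIs. Different clusters held most cells at the 2 ages: cluster 0 held 56.4% and cluster 2 27.6% of P28 cells, while cluster 1 held 34.8% and cluster 4 13.1% of P9 cells. Cells with cell cycle transcripts (at least 3 UMIs) made up 1.59% and 2.04% at P28 and 61.5% and 63.3% at P9. That cut was not adjusted for depth, and 1 gene of the list of 32, Stmn1, was at 801 CPM at P9 and 40.0 CPM at P28. These shares are therefore not read as shares of cycling cells. Libraries shared between 0 and 14 barcodes with each other.

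Of the 9 members tested, 6 were lower and 2 higher at P28, where 26.2% of all 11602 genes tested were called lower and 27.5% higher. Gpnmb was seen mostly in the P9 libraries and Fam20c mostly in those of P28. Each may have passed the filter on low counts only through the group where it is high, so these 2 calls are not independent of the filter. Both secreted factors were far lower at P28. Spp1 had 5.17 and 1.48 CPM (UMIs relative to the library's TMM-scaled total) at P28, against 56.4 and 107.6 CPM at P9, and fell by 4.61 ± 0.39 on the log2 scale (SE, edgeR, adjusted p = 4.26e-07). Igf1 had 2.79 and 2.55 CPM at P28, against 36.4 and 38.0 CPM at P9 (log2 fold change -3.79 ± 0.16, adjusted p = 4.67e-10). The groups did not overlap for either gene. Spp1 fell by 5.75 without P28 library 1 and by 3.96 without P28 library 2. Lpl had 29.8 and 35.04 CPM at P28, against 198 and 192 CPM at P9 (-2.58 ± 0.07, adjusted p = 2.81e-11).

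Gpnmb had no UMI in either P28 library, against 96 and 66 UMIs at P9, which were 9.34 and 7.12 CPM. Against a floor of 3 UMIs over the P28 group (0.203 CPM), Gpnmb was 39.4-fold lower at P28. This floor covers counting error only, while 1 P9 cell held 39 of the 96 UMIs and another 32 of the 66. It is therefore no guaranteed minimum. ST2 Het libraries, also of P9, had 2 Gpnmb UMIs each. The other lipid gene, Fabp5, had 4.11 and 4.83 CPM at P28, against 21.02 and 20.3 CPM at P9 (-2.20 ± 0.19, adjusted p = 5.29e-07). Sdc4, the syndecan, fell less, with 17.1 and 15.8 CPM at P28, against 36.0 and 33.5 CPM at P9 (-1.08 ± 0.10, adjusted p = 1.45e-06).

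2 members went the other way. Ccrl2, the chemerin-binding receptor, had 11.8 and 11.3 CPM at P28, against 4.38 and 3.56 CPM at P9 (1.53 ± 0.21, adjusted p = 4.13e-05). Fam20c, the osteopontin kinase, had 2.25 and 2.15 CPM at P28, against 0.29 and 0.86 CPM at P9 (1.93 ± 0.54, adjusted p = 0.00892), which rests on 17 and 16 UMIs at P28 and 3 and 8 UMIs at P9. The Fam20c call was lost under DESeq2 (adjusted p = 0.1005), without P9 library 1 (0.121) or P28 library 1 (0.0513), and over all cells (0.214), while without P9 library 2 its log2 fold change was 2.84. The groups did not overlap for either gene. Itgax overlapped, with 3.58 and 2.28 CPM at P28, against 1.27 and 3.34 CPM at P9 (0.37 ± 0.44, adjusted p = 0.503). The median over the 9 members was -2.20, against 0.06 over all genes tested.

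Since cells with at least 3 cell cycle UMIs were far fewer at P28, the comparison was repeated in cells with under 3. Depth was not adjusted for in this choice of cells. There Spp1 fell by 3.24, Igf1 by 4.42, Lpl by 2.58, Fabp5 by 2.24 and Sdc4 by 1.43 on the log2 scale, each with an adjusted p of at most 2.01e-05, and Ccrl2 rose by 1.24 (edgeR, adjusted p = 0.00349). Gpnmb, Fam20c and Itgax did not pass the filter on low counts there. Markers of border-associated macrophages, which were kept out of the sums by cluster, summed to between 322 and 324 CPM at P28 and between 461 and 476 CPM at P9. Neutrophil markers summed to between 58.8 and 93.2 CPM at P28 and between 5.74 and 8.74 CPM at P9. The part of these cell types in the results was not tested.

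**Figure D2:**
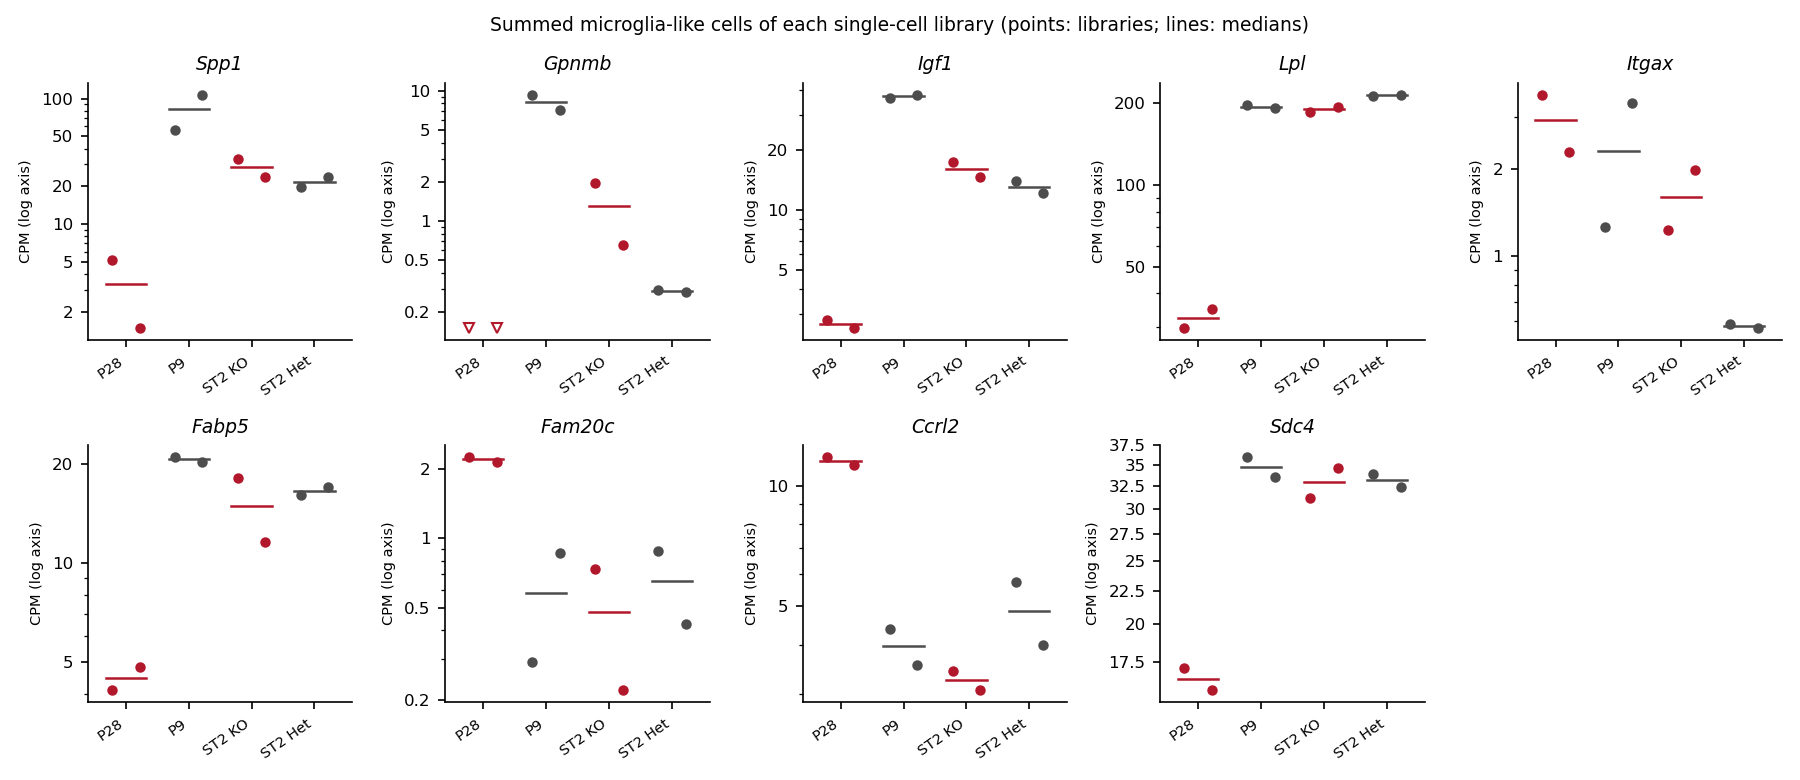
Level of each of the 9 genes measured (CPM, log axis) in the 8 single-cell libraries, grouped as P28, P9, ST2 KO and ST2 Het, with 1 point per library. The 2 P28 points lie below both P9 points for Spp1, Igf1, Lpl, Fabp5 and Sdc4 and above them for Ccrl2 and Fam20c.

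The pathway partners of the members were read from lists written with earlier results of these data known. Of 28 tested other genes of the phagocytic state, 8 were higher and 13 lower at P28. Lgals1, a galectin, fell to 9.01 ± 0.02 CPM at P28, against 71.7 ± 3.9 CPM at P9 (SD, n = 2 each, log2 fold change -2.99 ± 0.14), and Apoe, an apolipoprotein, fell by 2.54 ± 0.04. Lgals3, another galectin, was higher at P28 (1.35 ± 0.35). Among 9 tested partners of lipoprotein lipase and fatty acid handling, 5 were lower, among them Apoc1 (-4.45 ± 0.24), Angptl4, an inhibitor of the lipase (-3.84 ± 0.45), and Fabp3 (-3.48 ± 0.38), and 2 were higher, Pnpla2 and Acsl1. Igfbp4, a binding protein of IGF1, fell by 3.09 ± 0.06, while Insr (0.83 ± 0.12) and Igf1r (0.39 ± 0.12), the receptors, were higher. Of 8 osteopontin receptors 4 were higher, led by Itgb3 (1.22 ± 0.15), Itgb5 and Itga9, and 3 were lower, Cd44 (-2.27 ± 0.59), Itga4 and Itgb1. Of 18 homeostatic genes, 15 were higher and 1, Crybb1, lower.

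The second question was whether the same P9 cells carry several of these transcripts. Spp1 and Gpnmb were concentrated in few cells. In the 2 P9 libraries, 20 of 2558 and 20 of 2215 cells held at least 3 Spp1 UMIs, and they held 466 of 579 and 899 of 998 Spp1 UMIs. A single cell held 197 and another 476 of these UMIs. Without that top cell Spp1 was at 36.2 and 54.1 CPM of the library total at P9, and outside all such cells at 10.7 and 10.3 CPM. At P28, 3 and 1 cells held at least 3 Spp1 UMIs, and outside them Spp1 was at 2.44 and 0.949 CPM. A wider set of cells was cluster 10, microglia-like, whose leading genes included Spp1, Fabp5, Gpnmb, Apoc1 and Plin2. The members were not used to form it. It held 9.42% and 8.80% of P9 and 0.0353% and 0.0690% of P28 microglia-like cells. In ST2 KO libraries it held 4.69% and 5.26%, and in ST2 Het libraries 5.76% and 4.54%.

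Gpnmb reached 3 UMIs in 5 and 4 P9 cells, which held 84 of 96 and 57 of 66 of its UMIs. Igf1 was spread more widely, with 37 and 34 cells holding 175 of 374 and 172 of 352 UMIs, and no microglia-like cell reached 3 Igf1 UMIs at P28. Border-associated macrophage-like cells did so in 2 of 51 and 5 of 46 cells at P28 and in 49 of 247 and 38 of 226 at P9. Lpl was the most widely spread of these genes, with 227 and 211 P9 cells at 3 or more UMIs, against 11 and 12 at P28 (P28 cells held fewer UMIs each, with medians given above).

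In the 9 cells with at least 3 Gpnmb UMIs, pooled over both P9 libraries, every cell had a Spp1 UMI, 8 had Igf1, 5 had Itgax, 5 had Fabp5 and 7 had Lpl. In the other 4764 cells the shares were 4.60% for Spp1, 8.04% for Igf1, 0.504% for Itgax, 5.79% for Fabp5 and 40.3% for Lpl. None of the 9 had Ccrl2 or Fam20c, which 1.43% and 0.168% of the other cells had. At such shares 9 cells are too few to show a lack of either gene. The 40 cells with at least 3 Spp1 UMIs had Gpnmb in 20% against 0.444% of the rest, Igf1 in 32.5% against 7.99%, Itgax in 17.5% against 0.465% and Fabp5 in 37.5% against 5.62%. The 71 cells with at least 3 Igf1 UMIs had Spp1 in 31.0% against 4.38%, Sdc4 in 36.6% against 9.87% and Lpl in 80.3% against 39.8%, but Ccrl2 in 1.41% against 1.42%. Deep cells have more chance of any transcript: Spp1 cells of the first P9 library had a median of 5424 UMIs, against 3824 in its other cells. The gap was widest for Gpnmb cells of the second P9 library, with 10023.5 against 4066, while in the first it was 5197 against 3828. Igf1 cells of the second had 6152 against 4048.

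To remove depth, each cell was thinned to 1000 UMIs, which left out 2 P9 cells. Then 3 and 2 cells held both Spp1 and Gpnmb, where the product of the 2 shares gives 0.108 and 0.0686 cells. The ratio pooled over both libraries was 28.3, at 2000 UMIs 18.7, and with no thinning 11.6 (16 cells). These counts are small, cells of a library are not replicates, and the ratios are a description. Cells with UMIs of at least 3 members numbered 97 and 74 without thinning, where independent genes give 40.0 and 33.2, and 10 and 7 after thinning to 1000, where independent genes give 1.81 and 1.34.

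**Figure D3:**
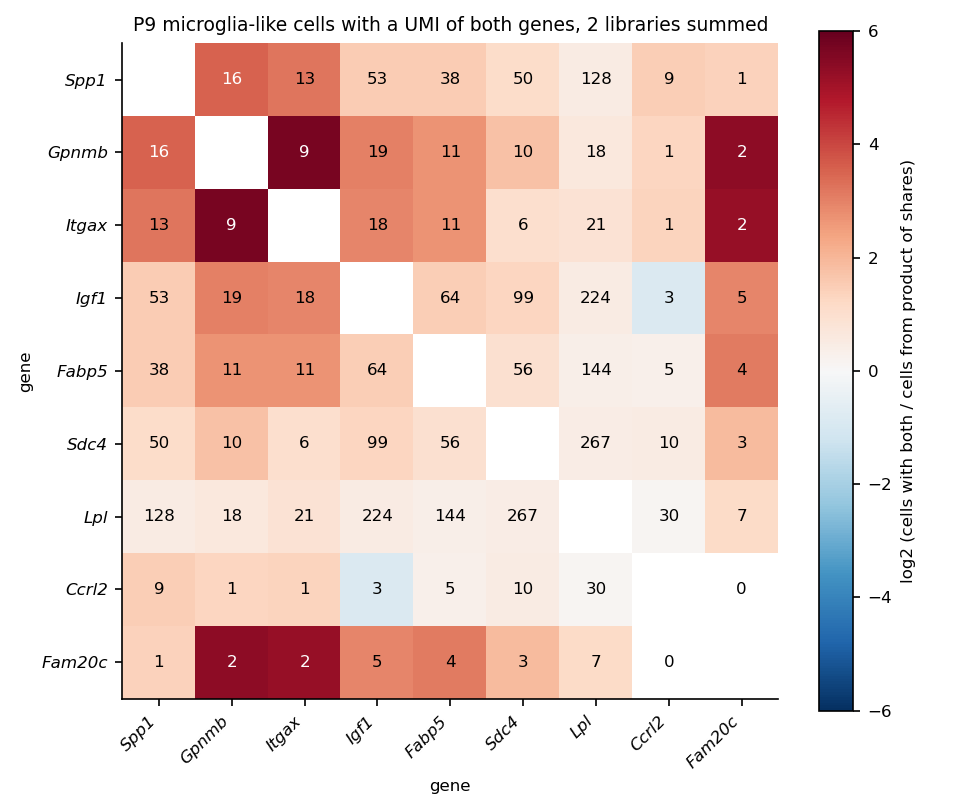
Cells of the P9 libraries with UMIs of both genes of a pair (number in each square), pooled over both libraries without thinning, with colour for the ratio to the product of the 2 shares. Spp1 with Gpnmb reached 16 cells. Ccrl2 with Fam20c reached 0 cells, but both genes were seen in few cells.

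Shares of cells with a UMI were set beside those in an unnamed cluster led by the endothelial gene Cldn5, whose cells also carried the 12 microglial markers. After thinning to 1000 UMIs, Lpl was seen in 2.80% and 2.68% of P28 microglia-like cells and in 16.7% and 15.4% of P9 cells. It was seen in 4.35% of 92 P9 cells of the Cldn5-led cluster. Of 69 neutrophil-like P28 cells, 7.25% had Lpl, above both P28 microglia-like shares. In these neutrophil-like cells, 0 had Spp1, Gpnmb or Igf1, each with an upper 95% limit of 5.21%. Those Cldn5-led cells, with a median of 1903 UMIs, had Spp1 in 3.26%, Igf1 in 11.96%, Fabp5 in 14.1%, Sdc4 in 4.35% and Gpnmb in 1.09%. Microglia-like P9 cells had Spp1 in 1.80% and 1.72%, Igf1 in 2.54% and 2.66%, Fabp5 in 2.00% and 1.85%, Sdc4 in 3.05% and 3.02% and Gpnmb in 0.235% and 0.181%, each at or below that background. The shares of these 5 genes over all microglia-like cells are therefore not read as expression. A single Cldn5-led cell held 15 Fabp5 UMIs in the first P9 library and another 21 in the second. Whether cells of this cluster themselves express these genes was not tested, so it may be no clean background. The background itself rests on 3 cells for Spp1, 4 for Sdc4 and 1 for Gpnmb. By cluster, some P9 microglia-like shares were above it, with Spp1 in 6.42% and Sdc4 in 6.65% of cluster 10. In cluster 5, whose leading genes were Fos, Klf2, Atf3 and Egr1, Sdc4 was in 9.16%, Spp1 in 3.82% and Gpnmb in 1.27%. Gpnmb was in 0.459% of cluster 10. Igf1 was in 9.67% of cluster 5 and 7.57% of cluster 10, and Fabp5 in 3.56% and 5.50%. Igf1 and Fabp5 were below that background in both clusters. Asking for at least 3 UMIs did not clear this background. In the Cldn5-led cells of the first P9 library, 2 of 47 reached 3 UMIs of Spp1 (4.26%), 1 each of Gpnmb and Igf1 (2.13%) and 2 of Fabp5 (4.26%). Of the 51 such cells in the second, 0 reached it for Spp1 and Gpnmb, 1 for Igf1 and 7 for Fabp5 (13.7%). Microglia-like P9 cells reached it in 0.782% and 0.903% for Spp1, 0.195% and 0.181% for Gpnmb, 1.45% and 1.53% for Igf1 and 0.586% and 0.451% for Fabp5. Lpl reached it in 8.87% and 9.53% of microglia-like P9 cells, against 0 of 47 and 1 of 51 Cldn5-led cells. The counts of cells with several of these transcripts describe droplets from which doublets were not removed.

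The third comparison was of ST2 KO with ST2 Het cells at P9. None of the 9 members passed, where 0.31% of all genes tested were called higher and 0.293% lower (36 and 34 genes). Unadjusted p (edgeR) was under 0.05 for 2 members, Gpnmb and Lpl, and for 1147 of all 11602 genes tested. DESeq2 called 0 members. Gpnmb had 8 and 3 UMIs in KO cells, against 2 and 2 in Het cells (log2 fold change 2.08 ± 0.79, edgeR, adjusted p = 0.403), 3 or fewer UMIs in 3 of 4 libraries. Lpl had 186 and 194 CPM in KO cells, against 213 and 215 CPM in Het cells (-0.17 ± 0.07, adjusted p = 0.405). Spp1 had 32.9 and 23.7 CPM in KO cells, against 19.7 and 23.7 CPM in Het cells (0.37 ± 0.36, adjusted p = 0.784), so its groups overlapped. Igf1 had 17.4 and 14.7 CPM in KO cells, against 13.95 and 12.23 CPM in Het cells (0.29 ± 0.15, adjusted p = 0.557). With 2 libraries a group, the groups did not overlap for 5 of the 9 members, Igf1 among them, though none was called. The share of all genes without overlap was not counted, so this count is not read as a difference. The other 5 members lay between -0.57 for Ccrl2 and 1.46 for Itgax, with adjusted p of at least 0.554. Of 28 other phagocytic-state genes, Ccl4, a chemokine, was the 1 called, lower in KO cells (119 ± 18 against 211 ± 4.6 CPM, SD, n = 2 each, -0.82 ± 0.16).

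Il1rl1, the gene of ST2, had 30 and 28 UMIs in KO libraries and 37 and 46 in Het libraries, so the transcript end counted by this assay was not absent in KO cells. The assay reads the 3' end, which may lie outside a deletion. Eif2s3y, on the Y chromosome, had 88 and 125 UMIs in KO libraries and 0 in the other 6, while Xist, expressed from the inactive X chromosome of females, was at 1261 and 1244 CPM in KO libraries and 1883 and 1952 CPM in Het libraries. KO libraries thus held transcripts of both, and the genotype and the sex of the mice cannot be told apart. ST2 libraries at P9 also differed from wild-type P9 libraries in level: Gpnmb had between 2 and 8 UMIs in ST2 libraries and 96 and 66 in wild-type ones. These sets of libraries were not compared by a test.

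The fourth comparison was of IL-33 with medium in cultured microglia, 7 libraries each. Sdc4 and Ccrl2 were higher and Spp1, Fabp5 and Gpnmb lower with IL-33, so 2 and 3 of 10 members, where 4.21% of all 10814 genes tested were called higher and 3.5% lower. Sdc4 ran from 215 to 285 CPM (median 246) with IL-33 and from 127 to 174 CPM (median 173) in medium, with no overlap (0.59 ± 0.07, edgeR, adjusted p = 9.26e-06). Ccrl2 ran from 13.4 to 17.8 CPM (median 15.4) with IL-33 and from 9.66 to 14.9 CPM (median 12.5) in medium (0.37 ± 0.11, adjusted p = 0.0367), and its groups overlapped. The Ccrl2 call did not hold when medium library 2, 3, 5, 6 or 7 or IL-33 library 1, 3, 4 or 7 was left out, with adjusted p up to 0.0863, or without the count filter (0.0526).

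Spp1, Fabp5 and Gpnmb fell by little. Spp1 ran from 14477 to 15721 CPM (median 15190) with IL-33 and from 16557 to 22943 CPM (median 17165) in medium (-0.25 ± 0.05, adjusted p = 0.00452), without overlap. Fabp5 ran from 367 to 459 CPM (median 390) with IL-33 and from 479 to 552 CPM (median 512) in medium (-0.33 ± 0.05, adjusted p = 0.000188), without overlap. Medium library 2 was the highest of its group for Spp1 and for Gpnmb. Gpnmb ran from 2018 to 2458 CPM (median 2171) with IL-33 and from 2454 to 3901 CPM (median 2599) in medium (-0.30 ± 0.08, adjusted p = 0.0265). Its groups overlapped, and its call was lost under DESeq2 (0.0585) and without IL-33 library 3 (0.0507) or 4 (0.0607). Without medium library 2 its log2 fold change was -0.20 (edgeR, adjusted p = 0.0029). Igf1, Lpl, Itgax, Clec7a and Fam20c lay between -0.20 and 0.07, with adjusted p of at least 0.217.

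Of 28 other phagocytic-state genes, 8 were higher and 8 lower with IL-33. The chemokine genes Ccl3 (125 ± 10 against 63.2 ± 7.4 CPM, SD, n = 7 each, 0.99 ± 0.07) and Ccl4 (0.65 ± 0.13) and the NADPH oxidase gene Cybb (0.55 ± 0.05) were higher, and Atp6v0d2, a subunit of the proton pump (-0.56 ± 0.07), Cd9 and Trem2 were lower. Of 15 homeostatic genes, 6 were lower, among them P2ry13 (-1.10 ± 0.16), Gpr34 (-0.95 ± 0.18) and P2ry12 (-0.88 ± 0.15). Of the syndecans and relatives, Sdc1 rose by 1.21 ± 0.20, and of the lipid partners Acsl1 rose by 0.66 ± 0.07 while Fabp4, Apoc2 and Plin2 were lower.

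The fifth comparison was of Tau-GFP plus with Tau-GFP negative cells, 8 libraries each, where GFP made in neurons is meant to mark uptake. In bulk, fewer cells of a type and less RNA per cell cannot be told apart. Of 10 members, 8 were higher in Tau-GFP plus cells and none lower, where 20.7% of all 12137 genes tested were called higher and 16.9% lower. The median over the members was 2.05, against 0.01 over all genes tested.

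Igf1 ran from 140 to 256 CPM (median 159) in Tau-GFP plus cells and from 26.9 to 39.8 CPM (median 34.6) in negative cells, with no overlap (2.36 ± 0.13, edgeR, adjusted p = 7.49e-10). Spp1 ran from 31.1 to 352 CPM (median 81.8) in plus cells and from 2.84 to 86.3 CPM (median 6.68) in negative cells (2.80 ± 0.68, adjusted p = 0.00346). The groups overlapped, and negative library 2 was the highest of its group. Without it, Spp1 rose by 3.71 on the log2 scale (adjusted p = 0.000208).

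Gpnmb ran from 0.956 to 78.0 CPM (median 28.5) in plus cells and from 0.447 to 9.68 CPM (median 2.98) in negative cells, with overlap (3.05 ± 0.72, adjusted p = 0.00273). Fabp5 ran from 16.2 to 31.0 CPM (median 22.9) in plus cells and from 3.00 to 9.17 CPM (median 5.43) in negative cells, without overlap (2.16 ± 0.22, adjusted p = 6.72e-07). Fam20c ran from 5.46 to 12.6 CPM (median 8.71) in plus cells and from 0.196 to 5.15 CPM (median 1.29) in negative cells (2.29 ± 0.41, adjusted p = 0.000287). The groups did not overlap for Fam20c, in which negative library 4 was the highest of its group.

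The receptors differed in how far they moved. Clec7a ran from 26.3 to 59.5 CPM (median 33.6) in plus cells and from 5.59 to 14.2 CPM (median 9.44) in negative cells (1.94 ± 0.19, adjusted p = 7.35e-07). Sdc4 ran from 209 to 397 CPM (median 249) in plus cells and from 88.9 to 156 CPM (median 94.9) in negative cells (1.34 ± 0.13, adjusted p = 6.72e-07). The groups did not overlap for either. Ccrl2 ran from 11.8 to 39.0 CPM (median 14.5) in plus cells and from 4.36 to 10.3 CPM (median 6.70) in negative cells (1.36 ± 0.24, adjusted p = 0.000257). Lpl (219 against 187 CPM at the median, 0.18 ± 0.11, adjusted p = 0.227) and Itgax (11.97 against 5.98 CPM at the median, 0.89 ± 0.41, adjusted p = 0.102) did not pass and overlapped. Itgax passed without plus library 1 (0.0444) or negative library 1 (0.0466), and Lpl without plus library 3 (0.0332).

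Markers of other cells moved with the sort. All 8 markers of border-associated macrophages were higher in plus cells, with sums from 4058 to 10470 CPM in plus libraries and from 1252 to 1618 CPM in negative ones, and all 7 tested neuron markers were higher, with sums from 88.2 to 181 CPM in plus and from 2.85 to 16.1 CPM in negative libraries. Mural markers summed to between 50.1 and 351 CPM in plus and between 7.27 and 46.5 CPM in negative libraries. Endothelial markers were higher for 6 of 9, with sums from 53.3 to 2925 CPM in plus and from 73.1 to 413 CPM in negative libraries. Astrocyte markers were higher for 5 of 6. Microglial markers summed to between 30136 and 46283 CPM in plus and between 58595 and 71314 CPM in negative libraries. In the P9 single cells, 28 of 247 and 26 of 226 border-associated macrophage-like cells reached 3 Sdc4 UMIs, against 26 of 2558 and 16 of 2215 microglia-like cells. For Igf1, 49 and 38 did, against 37 and 34. Lpl went the other way, with 4 and 4 against 227 and 211, as did Gpnmb, with 0 and 0 against 5 and 4. Library 5 of the plus group had the highest border-associated macrophage sum and the highest Igf1, Clec7a, Ccrl2 and Sdc4. The part of these cells in the results was not tested.

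**Figure D4:**
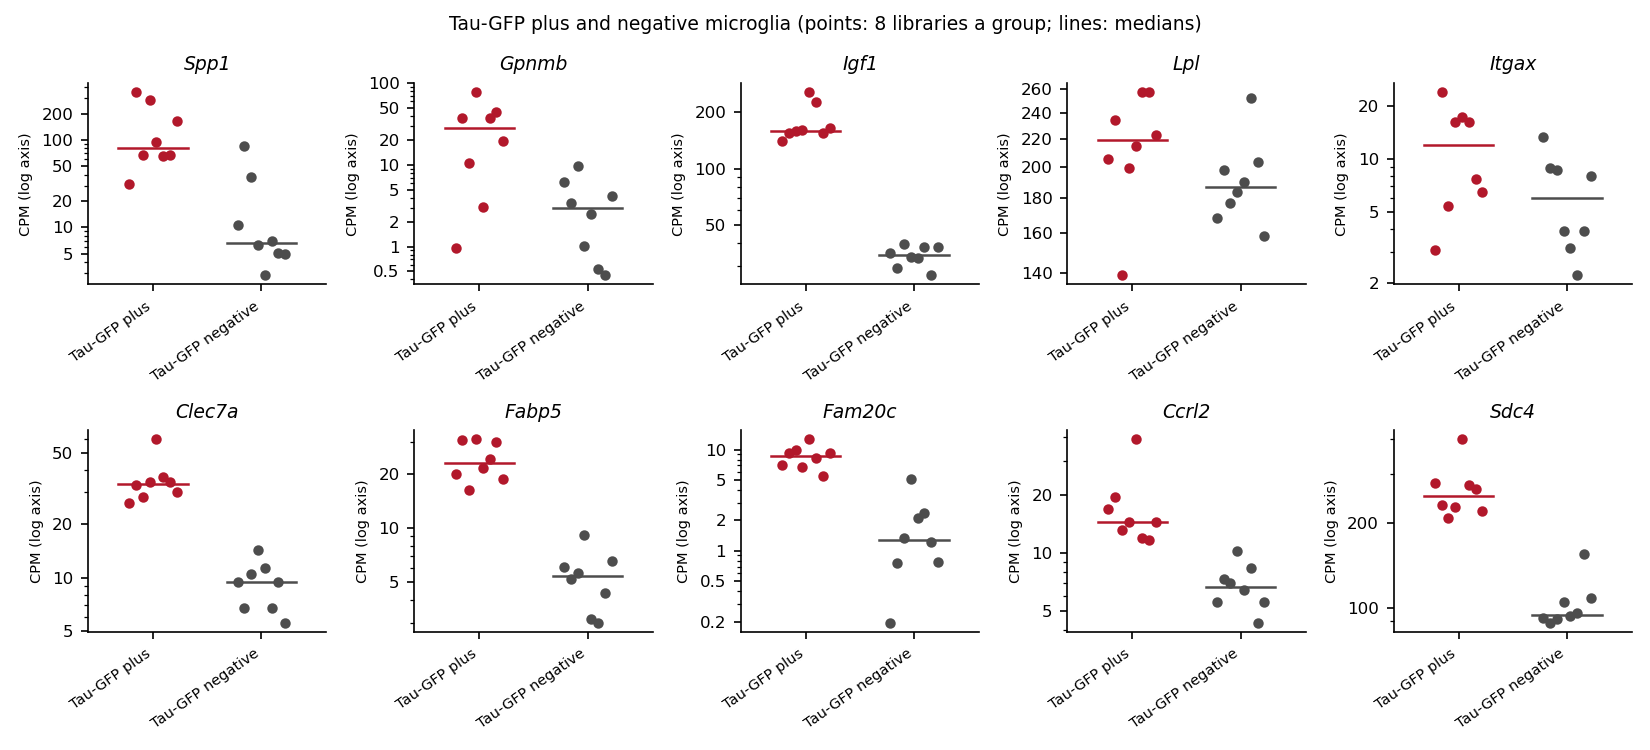
CPM (log axis) of the 10 genes in 8 Tau-GFP plus and 8 Tau-GFP negative libraries, with points for libraries and lines for medians. Igf1 in plus libraries sits between 140 and 256 CPM, above all negative libraries, while Lpl overlaps.

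Of 27 other phagocytic-state genes, 14 were higher and 2 lower in Tau-GFP plus cells. Lgals1 (3.24 ± 0.20) and Cybb (3.20 ± 0.42) were higher, as was Ccl3 (1.99 ± 0.27), and Ctsl and Trem2 were lower. Of the fatty acid partners, the scavenger receptor gene Cd36 rose by 5.32 ± 0.33, Angptl4 by 2.08 ± 0.37 and Fabp3 by 1.28 ± 0.31. Cd36 was also among the leading genes of the border-associated macrophage-like cluster in single cells. The part of other cell types in these partner genes was not tested. Of the IGF partners, Igf2r (3.40 ± 0.60), Irs1 (3.35 ± 0.67) and Igfbp5 (2.54 ± 0.77) were higher, and of the syndecans Sdc2 (4.11 ± 0.65) and Sdc1 (3.94 ± 0.67). All 18 homeostatic genes were lower, with Slc2a5 at -1.04 ± 0.08, and of 32 cell cycle genes 23 were higher and 1 lower.

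The last comparison was of TMRM high with TMRM low cells, in FPKM (a length-corrected level relative to the whole library), a scale on which genes can be set side by side. All 10 members were called higher in TMRM high cells, where 20.4% of all 10714 genes tested were called higher and 9.84% lower. The 10 high and 8 low libraries did not overlap for any member, but the share of all genes without overlap was not counted. Fold changes are on the log2(FPKM + 1) scale, which understates low genes. Gpnmb ran from 80.9 to 111 FPKM (median 95.5) in high cells and from 0.626 to 3.99 FPKM (median 1.14) in low cells (5.38 ± 0.16, limma, adjusted p = 5.36e-15). Spp1, the most abundant member in high cells, ran from 1667 to 2822 FPKM (median 2111) in high cells and from 29.9 to 140 FPKM (median 72.7) in low cells (4.93 ± 0.20, adjusted p = 7.58e-13). With a pseudocount of 0.1 FPKM, Gpnmb rose by 6.15, Fam20c by 4.02 and Itgax by 3.83.

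Fam20c and Itgax were near 1 FPKM in low cells. Fam20c ran from 14.4 to 27.5 FPKM (median 19.9) in high cells and from 0.392 to 2.11 FPKM (median 1.29) in low cells (3.26 ± 0.15, adjusted p = 3.66e-12). Itgax ran from 15.8 to 25.8 FPKM (median 21.1) in high cells and from 0.600 to 2.70 FPKM (median 1.32) in low cells (3.16 ± 0.15, adjusted p = 4.81e-12). Igf1 ran from 85.7 to 108 FPKM (median 95.1) in high cells and from 8.70 to 13.7 FPKM (median 12.4) in low cells (2.90 ± 0.08, adjusted p = 2.85e-15). These genes were low or moderate in TMRM low cells and at least 14.4 FPKM in each TMRM high library.

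Fabp5 ran from 69.6 to 207 FPKM (median 138) in high cells and from 13.8 to 28.9 FPKM (median 18.98) in low cells (2.72 ± 0.17, adjusted p = 3.22e-10). Clec7a ran from 18.99 to 40.6 FPKM (median 33.7) in high cells and from 2.84 to 7.11 FPKM (median 5.94) in low cells (2.39 ± 0.17, adjusted p = 3.12e-09). The 3 members that moved least were Sdc4, Ccrl2 and Lpl. Sdc4 ran from 192 to 281 FPKM (median 248) in high cells and from 59.7 to 85.9 FPKM (median 68.8) in low cells (1.76 ± 0.08, adjusted p = 5.40e-12). Ccrl2 ran from 330 to 405 FPKM (median 340) in high cells and from 91.7 to 132 FPKM (median 102) in low cells (1.72 ± 0.06, adjusted p = 1.62e-13). Lpl ran from 124 to 165 FPKM (median 153) in high cells and from 54.9 to 75.0 FPKM (median 63.3) in low cells (1.24 ± 0.07, adjusted p = 1.32e-10).

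**Figure D5:**
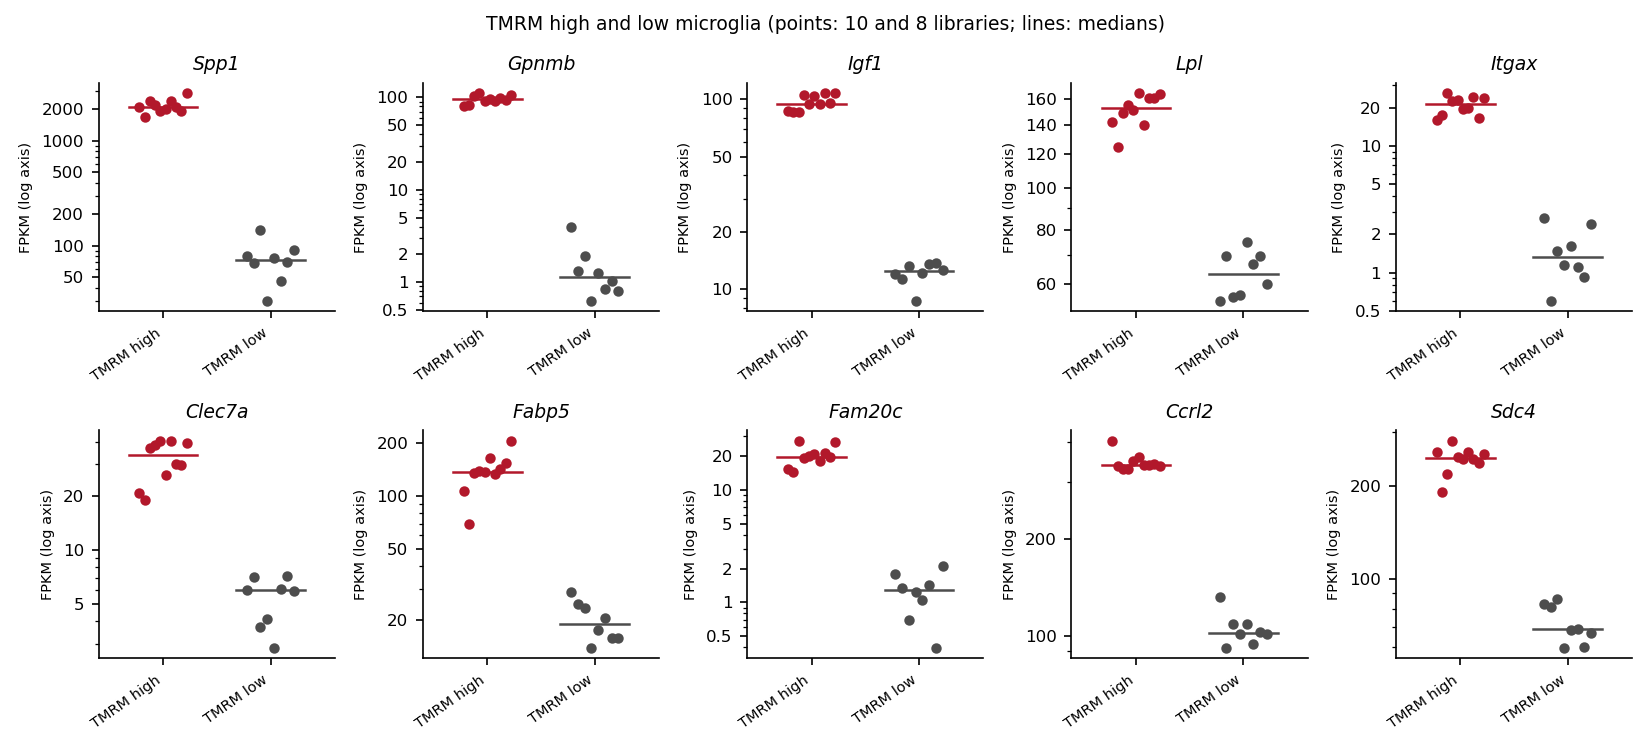
FPKM (log axis) of the 10 genes in 10 TMRM high and 8 TMRM low libraries, with points for libraries and lines for medians. No TMRM low library reaches the lowest TMRM high library for any of the 10 genes.

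Markers of other cells differed between the TMRM sorts, in both directions. All 8 neutrophil markers were lower in high cells, with sums from 16.03 to 798 FPKM in high and from 676 to 2345 FPKM in low libraries, and choroid plexus markers summed to between 30.8 and 118 FPKM in high and between 116 and 34359 FPKM in low libraries. Border-associated macrophage markers summed to between 186 and 289 FPKM in high and between 106 and 185 FPKM in low libraries. Dendritic cell markers summed to between 8.21 and 20.1 FPKM in high and between 3.26 and 8.80 FPKM in low libraries, and microglial markers to between 11811 and 13438 FPKM in high and between 12405 and 14027 FPKM in low libraries. The part of these cells in the results was not tested, and all 10 calls held with each library left out in turn. Of 30 other phagocytic-state genes, 27 were higher and 1, Cybb, lower. Atp6v0d2 rose by 2.93 ± 0.17, Ank, a pyrophosphate transporter, by 2.03 ± 0.27 and Anxa5, an annexin, by 1.98 ± 0.09. Of the fatty acid partners 7 of 11 were higher, led by Apoc1 (1.75 ± 0.18), Fabp3 (1.64 ± 0.30) and Plin2 (1.31 ± 0.07), and of the transcription factors of the MiT family Mitf rose by 0.57 ± 0.13 and Tfe3 by 0.17 ± 0.06. Of 18 homeostatic genes 13 were lower, with Tmem119 at -1.03 ± 0.06, and of 32 cell cycle genes 28 were higher.

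Cultured cells stood apart in level from cells taken from the brain. On one TMM scale over the 30 bulk count libraries, Spp1 averaged 17800 ± 521 CPM in IL-33 cultures and 21215 ± 2453 CPM in those left in medium (SD, n = 7 each), 121 ± 101 CPM in Tau-GFP plus cells and 17.6 ± 25.4 CPM in Tau-GFP negative cells (SD, n = 8 each). Gpnmb averaged 2617 ± 190 CPM in IL-33 cultures, 3231 ± 579 CPM in medium, 24.8 ± 22.2 CPM in plus cells and 3.06 ± 2.80 CPM in negative cells. Fam20c had the same order of culture above brain, with 644 ± 49.0 CPM with IL-33, 613 ± 32.3 CPM in medium, 7.32 ± 1.88 CPM in plus cells and 1.52 ± 1.34 CPM in negative cells. Ccrl2 did not, with 18.3 ± 2.15 CPM with IL-33, 14.2 ± 2.23 CPM in medium, 15.1 ± 7.70 CPM in plus cells and 5.99 ± 1.59 CPM in negative cells. Sdc4 averaged 288 ± 27.7 CPM in IL-33 cultures, 191 ± 21.5 CPM in medium, 225 ± 51.5 CPM in plus cells and 90.8 ± 19.3 CPM in negative cells. Microglial markers summed to between 8445 and 9422 CPM under IL-33 and between 8626 and 9915 CPM without it, scaled over the cultures alone, where the sums over the Tau-GFP libraries, scaled alone and given above, were 30136 to 71314 CPM. P2ry12, a purinergic receptor that marks microglia in the brain, averaged 8.14 ± 2.2 CPM under IL-33 and 15 ± 1.6 CPM without it (SD, n = 7 each). Cultures and sorted cells differ in age, strain and preparation, which cannot be told apart from these levels.

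The genes whose 5 log2 fold changes lay nearest to a member's, by Euclidean distance over 8844 genes tested in all 5 comparisons, were Hpse (heparanase, 1.09) and Folr2 (1.18) for Igf1, and the same 2 genes for Spp1 (2.13 and 2.19). For Fabp5 they were Anxa5 (0.93) and Sh3bgrl (1.25), for Ccrl2 Cst7 (0.84) and Pde2a (1.19), for Sdc4 S100a1 (0.87) and Lyz2 (0.93), and for Lpl Psat1 (0.54) and Rrm1 (0.65). Fam20c lay nearest to Lgals3 (1.99) and Cst7 (2.34), and Itgax to Hilpda (1.82) and Ank (1.84). None is given for Gpnmb, which had no UMI at P28, or for Clec7a, which has no single-cell value.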

How the data were processed

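Single-cell files hold UMI counts, deposited as whole numbers per gene and cell, made with Cell Ranger on mm10 per the submitters' processing notes. The count table holds expected counts (RSEM, Bowtie2, mm10, per the submitters' processing notes), of which 25.3% were not whole and were rounded. It holds 7709047 to 11826389 expected counts per library, and 5 of its columns, which no label names, were not used. TMRM files hold FPKM deposited by the authors (TopHat2 2.0.10, Cufflinks 2.0.2, per the submitters' processing notes), so their depth is unknown. Versions of the other tools were not given in the sources used here.

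Cells needed 500 or more genes and less than 10% mitochondrial UMIs, doublets were not removed, and cells were clustered on 1992 variable genes without the members (30 components, 15 neighbours, Leiden resolution 1, scanpy 1.11.5, leidenalg 0.10.2, Python 3.11.15). UMIs of microglia-like cells were summed per library. The 8 single-cell libraries shared 1 fit, and IL-33 and Tau-GFP libraries had their own, by edgeR 4.0.16 and its quasi-likelihood F test (R 4.3.3) with TMM and its default filter. The SE is the absolute log2 fold change over the square root of F. TMRM was tested by limma 3.58.1 with a trend on log2(FPKM + 1), for means of at least 1 FPKM. The p-values are 2-sided and Benjamini-Hochberg adjusted over all genes tested. Alternatives were DESeq2 1.42.0, other scaling, filters, pseudocount and cell sets, a replicate block and leaving out each library, and the scripts were tested on simulated data. Intervals and floors cover counting error only.

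The members and lists were chosen with earlier results of these data known. Named genes are all members, up to 3 called genes per direction of each partner list, and the 2 nearest genes per member, except Gpnmb and Clec7a.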

Additional observations from a re-analysis of the deposited data

Results flagged for a closer look

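In 60 groups of a gene and a set of libraries, 11 had a highest library far from the others by Dixon's gap test. Chance flags about 1 in 20 groups.

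In Tau-GFP plus cells, library 5 stood apart for 3 surface genes. It had 39.0 CPM of Ccrl2 (others 11.8 to 19.7), 59.5 CPM of Clec7a (others 26.3 to 36.8) and 397 CPM of Sdc4 (others 209 to 279). This library also had the highest sum of border-associated macrophage markers, and their part in these values was not tested. In Tau-GFP negative cells, Spp1 had 86.3 CPM in library 2 (others 2.84 to 38.1), Fam20c had 5.15 CPM in library 4 (others 0.196 to 2.38) and Sdc4 had 156 CPM in library 7 (others 88.9 to 109).

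In medium, library 2 had 22943 CPM of Spp1 (others 16557 to 17647) and 3901 CPM of Gpnmb (others 2454 to 2622). In TMRM high cells, Ccrl2 had 405 FPKM in library 1 (others 330 to 359). In TMRM low cells, library 1 had 132 FPKM of Ccrl2 (others 91.7 to 109) and 3.99 FPKM of Gpnmb (others 0.626 to 1.90).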

How the results depend on the processing

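All 10 members kept their call in TMRM high cells under every alternative run, and all 8 calls held in Tau-GFP plus cells. The count of members higher at P28 was 2 and became 1 under DESeq2, over all cells and in cells with under 3 cell cycle UMIs, and 1 to 2 when a library was left out. That of members higher with IL-33 was 2 and became 1 with no low-count filter and 1 to 2 when a library was left out. Among log2 fold changes not called, direction turned for Itgax at P28 (-0.19 to 1.199 over left-out libraries). In ST2 KO cells, left-out libraries gave -1.50 to 0.17 for Fam20c, -0.51 to 0.13 for Fabp5, and -0.091 to 0.063 for Sdc4. All cells gave 0.16 for Fabp5 and 0.24 for Sdc4, and cells with under 3 cell cycle UMIs -0.086 for Spp1, 0.054 for Ccrl2 and 0.39 for Sdc4. The causes were not tested. Over all cells Spp1 fell by 4.00 and Igf1 by 3.19 at P28.

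Same-numbered samples did not deviate together throughout (correlations from -0.18 to 0.33), so the numbers were not taken as pairs. With a replicate block, member counts stayed at 2 higher and 6 lower at P28, 0 and 0 in ST2 KO, 2 and 3 with IL-33, 8 and 0 in Tau-GFP plus and 10 and 0 in TMRM high cells. Over all genes, the block called 228 higher and 74 lower in ST2 KO cells. For TMRM libraries that share numbers it called 1513 higher and 792 lower, against 1802 and 946 without it, a fit chosen after seeing the data. The ratio for Spp1 with Gpnmb was 35.5 in thinned cells with under 3 cell cycle UMIs, where it rests on 2 cells, and 12.8 and 12 per library with no thinning (5 and 3 cells). Depth limits Gpnmb, Fam20c and Itgax most in single cells.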
